A study of Sinonovacula constricta with 9 samples.

Results

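Whole juveniles of the razor clam Sinonovacula constricta, a burrowing bivalve of estuarine mudflats, were compared after 6 h at 5 psu (low salinity) and after 6 h at 15 psu (the control, labelled optimal). The comparison holds 6 of the 9 libraries of the series, 3 at 5 psu and 3 at 15 psu, chosen by their labels. The other 3 libraries, at 25 psu (high salinity), entered no test here. All animals were at day 15 after fertilization, and total RNA of the whole organism was sequenced. No label says whether the 3 libraries of a salinity came from separate cultures, or how many juveniles were pooled in 1, so every p-value measures the spread between these libraries, which may be technical.

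Bivalves are osmoconformers: their body fluids follow the salinity of the water, and their cells cope with dilution by limiting swelling. Cells in diluted medium take up water, then release inorganic ions and organic osmolytes, largely free amino acids such as taurine, glycine, alanine and proline, and so regain volume. A closed shell delays the change. The identifiers in the deposited tables are assembly numbers with no gene names, so no unigene below could be tied to these pathways, and the tissue label could not be checked against marker genes. A unigene is 1 transcript sequence of the assembly. In whole animals, fewer cells of a type and less RNA per cell cannot be told apart.

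The libraries at 5 psu held 16186592, 16802473 and 18110431 estimated counts (replicates 1, 2 and 3) and those at 15 psu held 16868360, 18427234 and 16416436. Control replicate 2 stood apart in its nearly private unigenes. It held 670 unigenes that were nearly private to it (at least 30 counts and at least 90% of the counts of the 6 libraries), with 0.569% of its counts, against 19 to 31 such unigenes in each of the other 5 libraries. None of these unigenes passed the filter on low counts, so none entered the tests. No 2 libraries of a salinity were near-copies of each other, with chi-square values of 6.67 to 19.3 per degree of freedom at 5 psu and 4.31 to 6.35 at 15 psu, so each was counted as 1 sample.

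At 5 psu, 692 unigenes rose and 608 fell of 67050 tested (adjusted p under 0.05 in edgeR's quasi-likelihood F test, with the Benjamini-Hochberg method). These calls are 1.94% of the unigenes tested, 1.03% higher and 0.907% lower. The rises were the larger changes: their median was 2.95-fold (interquartile range 2.05 to 5.68), and that of the falls 2.13-fold (1.74 to 2.80). A change of at least 2-fold was called for 532 that rose and 351 that fell, 1.32% of those tested. At least 4-fold changes numbered 253 rises and 63 falls (0.471%), and at least 8-fold changes 116 rises and 28 falls (0.215%). The smallest changes called were a 1.32-fold rise and a 1.31-fold fall. No count in any 15 psu library was found for 31 of the rises, and none in any 5 psu library for 24 of the falls. With 3 counts put in place of such an empty group, the medians and the counts of large changes were the same. Rises did not outnumber falls in every processing: library totals alone gave 560 rises and 579 falls, a stricter count filter 809 and 836, limma on log2(FPKM + 1) 705 and 710, and a fit with all 9 libraries 905 and 1148.

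The number called rested strongly on single libraries. It was 384 (247 higher, 137 lower) without replicate 2 at 5 psu, and 489 (335 and 154), 398 (288 and 110) and 454 (303 and 151) with control replicate 1, 2 or 3 left out. Without replicate 1 at 5 psu it was 1005 (569 and 436), and without replicate 3 it was 1355 (694 and 661). As shares of the unigenes tested these counts are 0.573%, 0.729%, 0.594%, 0.677%, 1.5% and 2.02%, in that order. The estimated change of each of the 1300 unigenes kept its sign in all 6 of these fits. The groups did not overlap at any of the 1300, so leaving out 1 library could hardly turn a sign. The kept signs are therefore no measure of consistency.

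**Figure D1:**
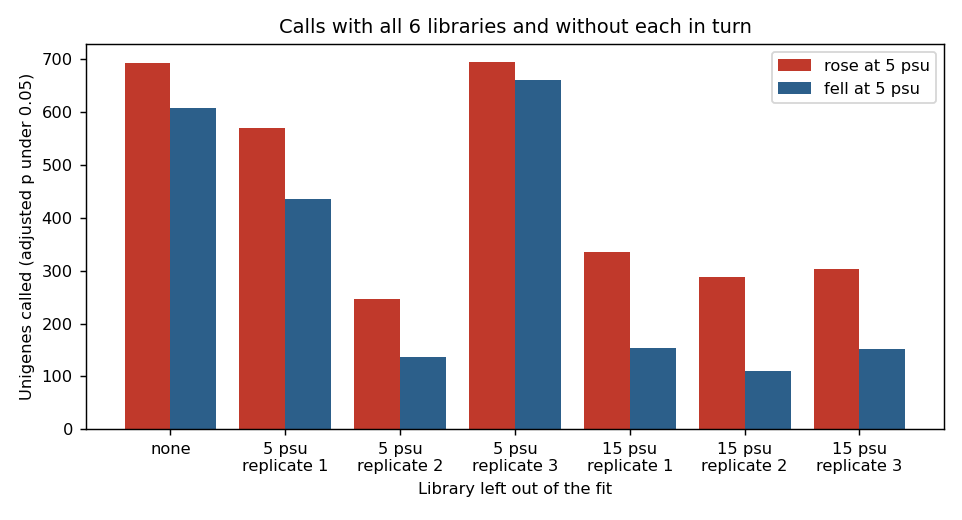
Unigenes called at 5 against 15 psu (y axis, number with adjusted p under 0.05) with all 6 libraries and with each library left out in turn (x axis), rises and falls as separate bars. The bars are lowest without replicate 2 at 5 psu or without any 1 of the control libraries, and rises outnumber falls in all 7 fits.

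A core of 308 unigenes, 221 that rose and 87 that fell, was called with all 6 libraries and again without each library in turn. That is 0.459% of those tested (0.33% higher, 0.13% lower) and 23.7% of the 1300 calls. The median change in this core was 4.59-fold for the rises and 2.62-fold for the falls. The core keeps only calls that pass in every fit, so larger medians than over the 1300 follow largely from the choice. Of the 308, 147 had a mean of at least 10 FPKM and 35 a mean of at least 100 FPKM. At those levels 8681 and 931 unigenes were tested. At the other end, 194 of the 1300 were called in none of the 6 fits on 5 libraries.

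All libraries of one salinity lay above all of the other for each of the 1300 unigenes, a property that the test favours. Over all unigenes tested, the 5 psu libraries lay wholly above the 15 psu libraries for 6817 (10.2%) and wholly below for 7579 (11.3%). An unadjusted p under 0.05 was reached by 9195 unigenes (13.7%). The median size of the change over all 67050 was 0.29 on the log2 scale, and the median signed change was 0.01.

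The share called grew with abundance, here the mean FPKM over the 6 libraries (fragments relative to a unigene's length in kilobases and to the size of the library). Under 1 FPKM, 57 rose (0.328%) and 46 fell (0.265%) of 17374, together 0.593%. From 1 to 10 FPKM, 401 rose (0.978%) and 310 fell (0.756%) of 40995, together 1.73%. From 10 to 100 FPKM, 202 rose (2.61%) and 204 fell (2.63%) of 7750, together 5.24%. At 100 FPKM and over, 32 rose (3.44%) and 48 fell (5.16%) of 931, together 8.59%. The sizes ran the other way, with a median rise of 3.08-fold and a median fall of 2.35-fold from 1 to 10 FPKM, against 2.11-fold and 1.72-fold at 100 FPKM and over. The near balance from 10 FPKM up was not stable: rises were 48.1% of the calls there, but 51.5 to 62.4% when any 1 library was left out. Under 10 FPKM rises were 56.3% of the calls, and 51.0 to 79.4% in the fits on 5 libraries.

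**Figure D2:**
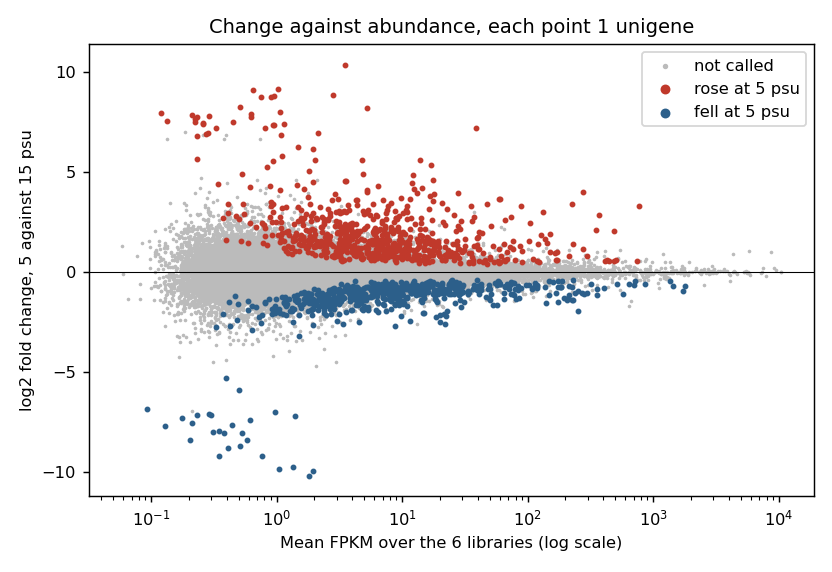
Log2 fold change at 5 against 15 psu (y axis) against the mean FPKM over the 6 libraries (x axis, log scale) for the 67050 unigenes tested, called rises and falls in colour. From 1 FPKM up, large changes are mostly rises: at least 4-fold changes number 148 rises and 22 falls from 1 to 10 FPKM, 47 and 9 from 10 to 100 FPKM, and 8 and 0 at 100 FPKM and over.

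Together the 692 unigenes that rose took 31222, 30399 and 29738 CPM (counts scaled to library size) in 5 psu replicates 1, 2 and 3, against 12883, 12716 and 12554 CPM in the 15 psu libraries. The 608 that fell took 26062, 26792 and 27330 CPM at 5 psu, against 44447, 45427 and 42653 CPM at 15 psu. The mean sum of the rises was 17735 CPM higher at 5 psu, and that of the falls dropped by 17448 CPM. Because the lists were chosen on these libraries, these sums are a description. Among the falls 10 unigenes made up 45.7% of the summed level, against 21.3% for 10 unigenes among the rises.

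Among unigenes of at least 10 FPKM the 8 largest rises stood at 17.4 to 92.9 FPKM at 5 psu, against 0 to 2.03 FPKM in the controls. Cluster-8005.67803 had the smallest p of all rises. It stood at 22.8, 22.5 and 23.3 FPKM in the 5 psu libraries, against 1.14, 0.99 and 1.13 FPKM in the 15 psu libraries. Both groups were tight and far apart, and the rise was 21.4-fold (4.42 on the log2 scale, SE 0.12, edgeR adjusted p = 4.38e-05). At 25 psu it was listed at 0.31, 0.17 and 0.38 FPKM.

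Cluster-8005.9267 showed the largest rise of the 8, with 121, 230 and 273 counts at 5 psu, against 0, 1 and 3 counts at 15 psu. In FPKM this was 47.6, 89.9 and 92.9 at 5 psu, against 0, 0.34 and 1.19 at 15 psu. Replicate 1 was the lowest of the 5 psu libraries and still far above every control. The estimate was 7.18 on the log2 scale (SE 0.54, edgeR adjusted p = 0.00127), and it rests on 4 counts in all at 15 psu. Cluster-8005.151538 was more even at 5 psu, with 28.7, 26.7 and 26.0 FPKM, against 0.36, 0.94 and 0.43 FPKM at 15 psu. That rise was 5.57 on the log2 scale (SE 0.30, edgeR adjusted p = 0.000351). Both unigenes were called in each fit on 5 libraries, but limma-voom did not call Cluster-8005.9267 (adjusted p = 0.215).

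Cluster-8005.159412 and Cluster-8005.140873 rose by similar amounts but were uneven at 5 psu. The first stood at 31.7, 29.4 and 20.2 FPKM at 5 psu, against 1.89, 1.44 and 1.28 FPKM at 15 psu (log2 fold change 4.18, SE 0.28, edgeR adjusted p = 0.00097). The second stood at 31.0, 21.3 and 18.7 FPKM at 5 psu, against 1.30, 1.58 and 1.33 FPKM at 15 psu (log2 fold change 4.13, SE 0.28, edgeR adjusted p = 0.00097). Replicate 1 was the highest and replicate 3 the lowest 5 psu library for both. At 25 psu the first stayed near its control level, at 1.75, 1.25 and 1.31 FPKM, and the second stood at 8.07, 6.77 and 5.39 FPKM, between its levels at 15 and 5 psu.

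Cluster-8005.119293 was uneven in the controls instead. It held 22.3, 20.7 and 27.1 FPKM at 5 psu, against 0.98, 1.29 and 0.18 FPKM at 15 psu, where replicate 3 was the lowest. Its rise of 4.84 on the log2 scale (SE 0.51, edgeR adjusted p = 0.0104) lost the call without replicate 2 at 5 psu (adjusted p = 0.0516) or without control replicate 1 (adjusted p = 0.06), and also without a filter on low counts (adjusted p = 0.109). The levels at 25 psu, 17.6, 13.1 and 22.7 FPKM, were close to those at 5 psu.

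The last of the 8 large rises rest on few counts. Cluster-8005.9804 held 31, 42 and 19 counts at 5 psu, against 1, 0 and 1 at 15 psu, a scaled ratio of 47.6 with a 95% exact counting interval of 12.8 to 399. Cluster-23476.0 held 19, 13 and 24 counts at 5 psu, against 1, 0 and 1 at 15 psu, a scaled ratio of 29.0 with an interval of 7.65 to 245. Their FPKM of 17.4 to 47.9 at 5 psu is counted over implied effective lengths of 55.3 and 32.3 nucleotides. The call for Cluster-23476.0 (edgeR adjusted p = 0.0251) was lost in each of the 6 fits on 5 libraries (adjusted p = 0.0684 to 0.0847). That for Cluster-8005.9804 (edgeR adjusted p = 0.0119) was lost without replicate 2 at 5 psu or control replicate 1 or 3 (adjusted p = 0.0566 to 0.0738).

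The 8 largest falls were 4.22-fold to 6.03-fold, and no called unigene of at least 10 FPKM fell by 8-fold or more. Cluster-8005.110785, which had the smallest p of the falls, stood at 6.01, 6.43 and 5.84 FPKM at 5 psu, against 34.1, 37.5 and 41.6 FPKM at 15 psu. The groups were far apart beside their own spread, and the change was -2.59 on the log2 scale (SE 0.11, edgeR adjusted p = 0.000188). Cluster-8005.85240 was much like it, with 5.94, 5.26 and 6.59 FPKM at 5 psu, against 32.5, 32.2 and 37.2 FPKM at 15 psu (log2 fold change -2.49, SE 0.17, edgeR adjusted p = 0.000949). At 25 psu these unigenes stood at 51.0, 37.1 and 41.4 FPKM and at 46.1, 33.4 and 39.9 FPKM, ranges that overlap their levels at 15 psu.

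Of the 8 falls, 5 were lowest at 5 psu and highest at 25 psu, with no overlap between the 3 salinities. Cluster-8005.117007 held 5.58, 7.61 and 6.04 FPKM at 5 psu, against 30.1, 35.8 and 26.6 FPKM at 15 psu, and 57.1, 72.8 and 66.1 FPKM at 25 psu. Its change at 5 psu was -2.23 on the log2 scale (SE 0.16, edgeR adjusted p = 0.00112). Cluster-8005.124622 held 7.02, 8.90 and 8.29 FPKM at 5 psu, against 32.9, 42.5 and 29.1 FPKM at 15 psu, and 106 to 136 FPKM at 25 psu. That fall was -2.08 on the log2 scale (SE 0.19, edgeR adjusted p = 0.00221).

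Cluster-8005.120628 fell to 9.03, 8.93 and 5.18 FPKM at 5 psu, against 36.6, 36.2 and 38.7 FPKM at 15 psu. Its controls were among the tightest of the named unigenes while replicate 3 at 5 psu was well below the others there (log2 fold change -2.22, SE 0.24, edgeR adjusted p = 0.00746), and at 25 psu it stood at 52.4, 47.8 and 52.9 FPKM. The rest of the 8 falls were uneven at 5 psu and lost their calls in some fits on 5 libraries. They held 12 to 41 counts per library at 5 psu, and the part of counting error in their unevenness was not tested. Their log2 fold changes were -2.46, -2.16 and -2.08, in the order given below. Cluster-8005.114139 had 1.60, 5.32 and 3.65 FPKM at 5 psu, against 19.9, 22.4 and 16.4 FPKM at 15 psu (edgeR adjusted p = 0.0171, and 0.0519 to 0.0805 in the 4 fits that lost the call), and 37.3, 45.3 and 41.95 FPKM at 25 psu. Cluster-8005.128076 had 4.73, 5.12 and 11.99 FPKM at 5 psu, against 37.1, 35.6 and 25.2 FPKM at 15 psu (edgeR adjusted p = 0.0361, and 0.0683 to 0.144 in the 5 fits that lost it). Cluster-8005.85001 had 5.49, 3.87 and 7.56 FPKM at 5 psu, against 20.7, 27.7 and 24.4 FPKM at 15 psu (edgeR adjusted p = 0.0108, lost without control replicate 2 or 3 at 0.0608 and 0.0513), and 35.3, 34.2 and 35.1 FPKM at 25 psu.

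**Figure D3:**
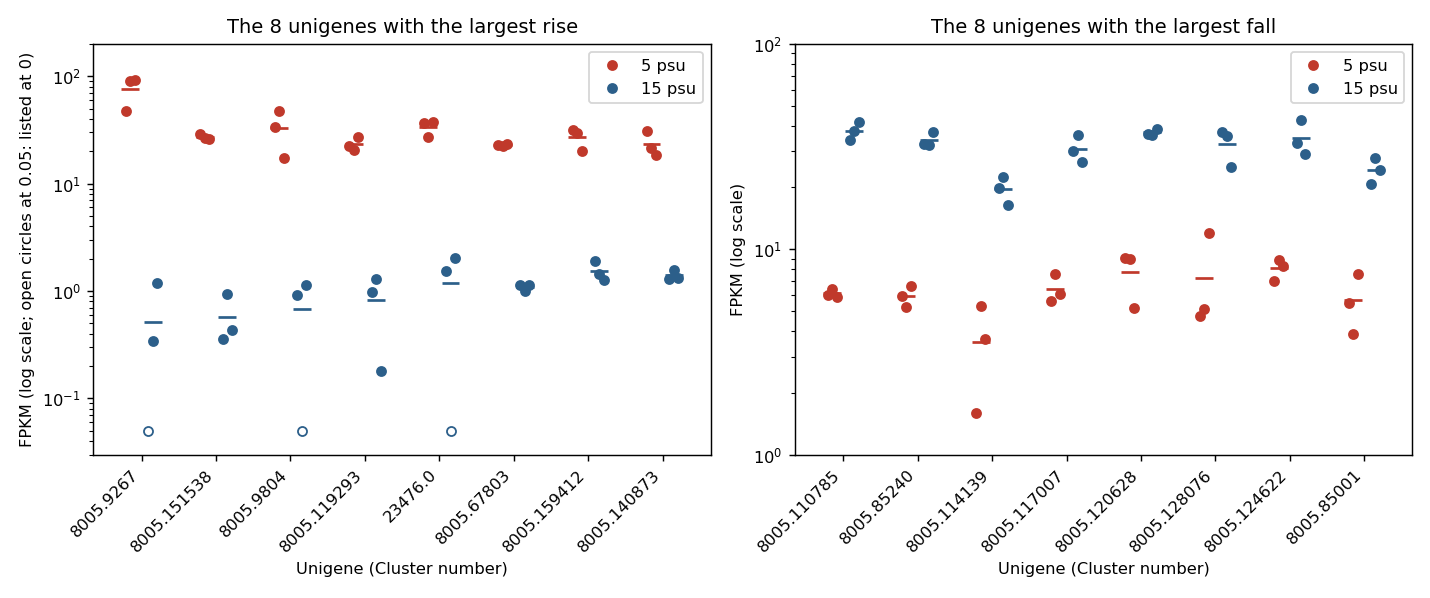
FPKM (y axis, log scale) of the 8 largest rises (left) and the 8 largest falls (right), 1 point per library, 5 psu left of 15 psu, with the group mean as a bar (n = 3). Open circles at 0.05 FPKM stand for values listed at 0. No unigene shows overlap between the groups, but non-overlap in CPM was a condition for being named. The 5 psu points are widest apart for Cluster-8005.114139 and Cluster-8005.9804.

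The most abundant falls by FPKM, and the well counted ones of the most abundant rises, moved by small amounts. Of all calls at 100 FPKM and over, 16 of the 32 rises and 17 of the 48 falls reached 2-fold. The 5 most abundant falls changed by -0.44 to -0.95 on the log2 scale. Cluster-8005.111919 stood at 1259, 1391 and 1409 FPKM at 5 psu, against 2072, 2275 and 2287 FPKM at 15 psu (log2 fold change -0.72, SE 0.08, edgeR adjusted p = 0.00501). Cluster-8005.111322 stood at 970, 1109 and 1196 FPKM at 5 psu, against 1763, 1817 and 1810 FPKM at 15 psu (log2 fold change -0.70, SE 0.07, edgeR adjusted p = 0.00361). Each fit on 5 libraries called both. Cluster-8005.112396, which took 0.234 to 0.255% of the counts at 5 psu against 0.357 to 0.396% at 15 psu, had 648, 648 and 703 FPKM at 5 psu, against 983, 1095 and 1043 FPKM at 15 psu (edgeR adjusted p = 0.00579, lost without replicate 2 at 5 psu at 0.0614 and without control replicate 2 at 0.0524). Cluster-8005.112681 (1051 to 1231 FPKM at 5 psu, against 1512 to 1656 at 15 psu, edgeR adjusted p = 0.0193) and Cluster-8005.110834 (919 to 1493 FPKM at 5 psu, against 2194 to 2260 at 15 psu, edgeR adjusted p = 0.0499) lost their calls in 4 and 5 of the fits on 5 libraries. The implied effective lengths of Cluster-8005.110834 and Cluster-8005.111919 are 32.3 and 89.2 nucleotides. Over the 6 libraries they took 31.4 to 84.6 and 118 to 208 CPM, against 2414 to 3959 CPM for Cluster-8005.112396. Their rank by FPKM therefore overstates their share of the counts.

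Of the 5 most abundant rises, 3 were well counted. Cluster-8005.108855 stood at 574, 557 and 662 FPKM at 5 psu, against 397, 400 and 432 FPKM at 15 psu (log2 fold change 0.58, SE 0.07, edgeR adjusted p = 0.0105). Cluster-8005.111100 stood at 825, 852 and 939 FPKM at 5 psu, against 621, 595 and 632 FPKM at 15 psu (log2 fold change 0.52, SE 0.08, edgeR adjusted p = 0.0174). Cluster-8005.112941 stood at 461, 571 and 674 FPKM at 5 psu, against 370, 407 and 418 FPKM at 15 psu (log2 fold change 0.53, SE 0.10, edgeR adjusted p = 0.0499). No library pair overlapped, which the naming rule requires, yet each of these calls was lost without any 1 of the control libraries (adjusted p = 0.0566 to 0.192). Without replicate 2 at 5 psu the calls for Cluster-8005.111100 (adjusted p = 0.0791) and Cluster-8005.112941 (adjusted p = 0.176) were lost too. At 25 psu all 3 were lower than in the controls, at 366 to 495, 274 to 359 and 229 to 324.5 FPKM for Cluster-8005.111100, Cluster-8005.108855 and Cluster-8005.112941.

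The remaining pair, Cluster-8005.161767 and Cluster-8005.120751, ranks high only per length. The effective lengths implied by their counts and FPKM are 2.18 and 3.17 nucleotides, and they held 45 to 57 and 28 to 58 counts at 5 psu, against 2 to 7 and 10 to 11 counts at 15 psu. Their FPKM at 5 psu, 1236 to 1536 and 671 to 907, is therefore a poor measure of abundance. The calls (log2 fold change 3.30 and 2.03, edgeR adjusted p = 0.0127 and 0.0265) were lost in 2 and 5 of the fits on 5 libraries.

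The 5 psu libraries, above all replicates 1 and 3, were further apart than the controls by most measures. Pearson's r of log2 CPM over the tested unigenes was 0.878 for 5 psu replicates 1 and 3, 0.898 for replicates 1 and 2 and 0.905 for replicates 2 and 3, against 0.901 to 0.909 for the 3 pairs of controls. Between salinities it was 0.867 to 0.892, and 6 of the 9 pairs of unlike salinity had a higher r than replicates 1 and 3 at 5 psu. The SD of the log2 difference between 2 libraries averaged 0.912 ± 0.0634 over the 3 pairs at 5 psu and 0.862 ± 0.0219 over the 3 pairs at 15 psu (SD, n = 3 pairs, which share libraries). On the first principal component (28.6% of the variance) replicates 1, 2 and 3 at 5 psu scored -118.9, -80.8 and -41.6, against 75.1, 95.9 and 70.3 at 15 psu, so the salinities did not overlap and replicate 3 lay nearest to the controls. On the second component (23.1%) the 5 psu scores were 100.9, -37.7 and -119.1, wider than the whole range of the controls, 87.7, -13.5 and -18.4.

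**Figure D4:**
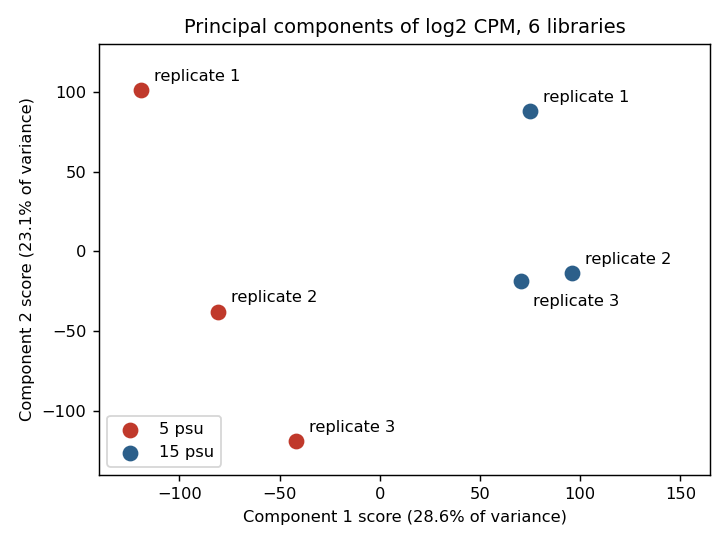
Scores of the 6 libraries on the first (x axis) and second (y axis) principal components of log2 CPM, 5 psu and 15 psu in colour. The 5 psu libraries run from 100.9 to -119.1 on the second component, and replicate 3 at 5 psu lies nearest to the controls on the first.

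Among well measured unigenes the answer depended on the measure. For 8681 unigenes of at least 10 FPKM, replicates 1 and 3 at 5 psu differed by at least 2-fold at 5.71%, replicates 1 and 2 at 2.004% and replicates 2 and 3 at 2.50%, against 1.37 to 1.96% for pairs of controls. Between salinities the share was 4.63 to 8.40%, and 2 of the 9 pairs were below the 5.71%. The SD of the log2 difference at these unigenes was 0.580 for 5 psu replicates 1 and 3, 0.391 for replicates 1 and 2 and 0.415 for replicates 2 and 3, against 0.470, 0.365 and 0.432 for control replicates 1 and 2, 1 and 3, and 2 and 3. By that measure the pair of replicates 1 and 3 at 5 psu stood above all control pairs, while the other pairs at 5 psu lay within their range. The median SD of log2 CPM over 3 libraries was 0.215 at 5 psu and 0.131 at 15 psu for these unigenes, and 6214 of the 8681 (71.6%) had the larger SD at 5 psu. At 100 FPKM and over the medians were 0.194 at 5 psu and 0.0959 at 15 psu, while under 1 FPKM, where counting noise is large, they were 0.504 and 0.468. The biological coefficient of variation that edgeR estimated in each group alone was 0.320 at 5 psu and 0.265 at 15 psu.

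A spread of at least 4-fold between the highest and the lowest 5 psu library was found at 67 unigenes of at least 10 FPKM, and at 42 unigenes between the control libraries. The order was the reverse at 100 FPKM and over, with 6 such unigenes at 5 psu and 9 at 15 psu. Control replicate 2 was the lowest control library at 8 of those 9. Replicate 3 was the highest 5 psu library at 44 of the 67 and replicate 1 the lowest at 40. The controls were uneven too: at the 42, replicate 3 was the highest control library at 24 and replicate 2 the lowest at 30. All 3 control libraries lay inside the 5 psu range at 42 of the 67 unigenes wide at 5 psu, and none of the 67 was called. Both follow largely from choosing unigenes with a wide 5 psu spread. Of all unigenes tested, 5.24% were called from 10 to 100 FPKM and 8.59% at 100 FPKM and over.

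The 4 unigenes of at least 100 FPKM with the largest 5 psu spread differ between the 5 psu libraries in both directions. Cluster-8005.112096 held 379, 133 and 58.3 FPKM at 5 psu, against 353, 271 and 204 FPKM at 15 psu. Replicate 1 was above every control and the other 5 psu libraries were below them all (log2 fold change -0.46, SE 0.69, edgeR adjusted p = 0.845). Cluster-8005.107443 held 47.6, 113 and 372 FPKM at 5 psu, against 59.9, 127 and 133 FPKM at 15 psu (log2 fold change 0.73, SE 0.70, edgeR adjusted p = 0.744). Cluster-8005.111859 followed the same order, with 92.1, 175 and 468 FPKM at 5 psu, against 105, 202 and 215 FPKM at 15 psu (log2 fold change 0.49, SE 0.56, edgeR adjusted p = 0.789). For these unigenes the lowest value of each group was in replicate 1, and without replicate 3 at 5 psu the estimates turned to -0.34 and -0.31. Cluster-8005.114377 held 44.4, 83.1 and 291 FPKM at 5 psu, against 48.0, 65.5 and 72.1 FPKM at 15 psu (log2 fold change 1.17, SE 0.66, edgeR adjusted p = 0.527). At all 4 unigenes the replicates ran in the same order at 5 and at 15 psu. At 25 psu the ranges of the 4 were narrow beside those at 5 psu, at 308 to 413, 45.9 to 60.1, 94.2 to 112 and 72.6 to 89.4 FPKM for Cluster-8005.112096, Cluster-8005.107443, Cluster-8005.111859 and Cluster-8005.114377. Because the 4 were chosen for their spread at 5 psu, a narrower range in another group follows largely from the choice.

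The spread also ran through the most abundant transcripts. Of the 20 unigenes with the most counts, 15 were highest in replicate 1 and lowest in replicate 3 among the 5 psu libraries, and 18 had a larger SD at 5 than at 15 psu. The 20 most abundant unigenes of each library took 24.1%, 20.9% and 17.3% of the counts in replicates 1, 2 and 3 at 5 psu, against 20.6%, 18.4% and 18.6% at 15 psu. Named after its values were seen, Cluster-8005.112184 took 6.06%, 4.83% and 3.35% at 5 psu, against 3.41%, 2.47% and 2.04% at 15 psu. Replicate 3 at 5 psu lay just below the highest control there, and the change was not called (log2 fold change 0.90, edgeR adjusted p = 0.291). Of the 20 unigenes 2 were called, both as falls, too few to read a direction. The share called was 1.94% over all unigenes tested and 8.59% at 100 FPKM and over.

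Differences between libraries of 1 salinity moved with unigene length. At unigenes of at least 10 FPKM, the median log2 difference of replicate 1 less replicate 3 at 5 psu was 0.22 under 250 nucleotides of effective length, 0.27 from 250 to 500, 0.24 from 500 to 1000, 0.14 from 1000 to 2000, 0.03 from 2000 to 4000 and -0.02 at 4000 and over. In the controls it was 0.26, 0.12, 0.10, 0.05, 0.02 and 0.00 in the same classes. This pair thus differed more in the controls under 250 nucleotides and more at 5 psu from 250 to 4000. The order depended on the pair. From 250 to 2000 nucleotides, replicate 1 less replicate 2 was 0.11, 0.08 and 0.04 at 5 psu, against 0.13, 0.10 and 0.05 in the controls. Replicate 2 less replicate 3 was 0.16, 0.15 and 0.09 at 5 psu, against -0.001, 0.01 and 0.01 in the controls. The median log2 fold change between the salinities stayed within -0.04 to 0.02 in all 6 length classes. With the median of each of 20 length classes removed in every library, replicates 1 and 3 at 5 psu still differed by at least 2-fold at 5.44% of these unigenes, against 1.36 to 1.58% for pairs of controls, and the test with such an offset, an alternative chosen after seeing the data, called 1326 unigenes.

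**Figure D5:**
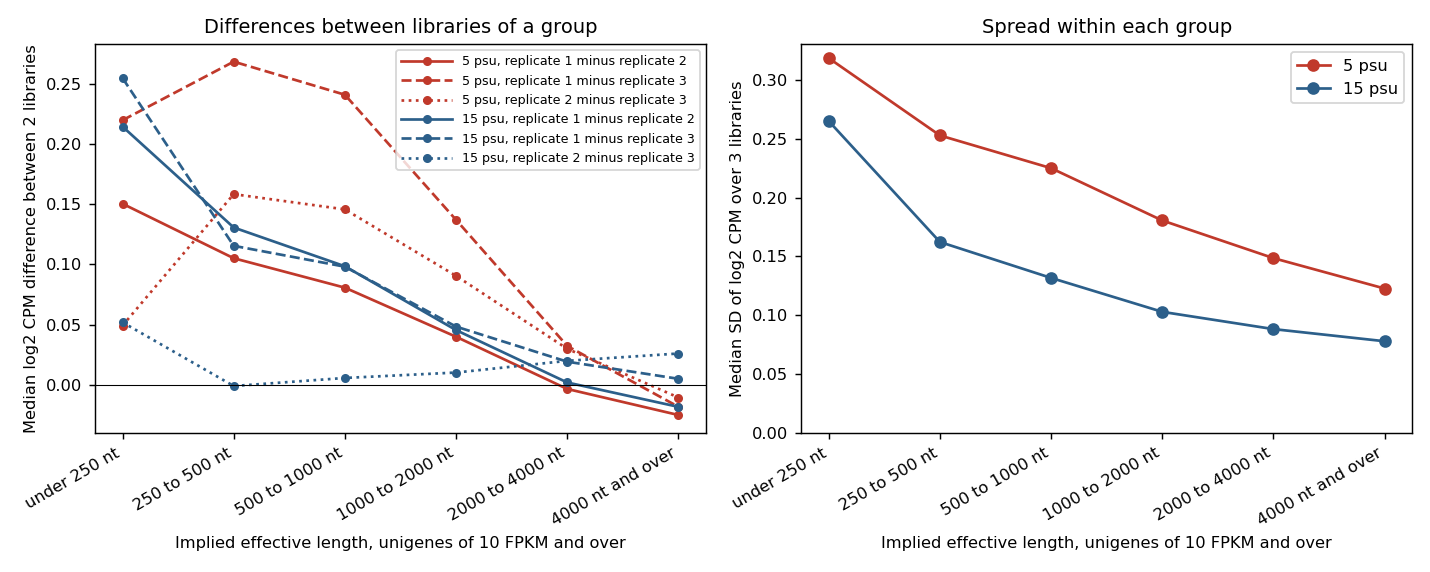
Left, the median log2 CPM difference of each pair of libraries of a group (y axis) by implied effective length (x axis) at unigenes of 10 FPKM and over. Right, the median SD of log2 CPM over the 3 libraries of each group, which is larger at 5 psu in all 6 classes.

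More of the longer unigenes were called. The share was 1.27% under 250 nucleotides, 1.5% from 250 to 500, 1.49% from 500 to 1000, 1.87% from 1000 to 2000, 2.44% from 2000 to 4000 and 2.95% at 4000 and over. For unigenes of 10 FPKM and over the shares in these classes were 2.32%, 5.15%, 5.22%, 6.2%, 8.38% and 10.6%. The median effective length was 1728 nucleotides for the rises and 1692 for the falls, against 1347 for all unigenes tested. Longer unigenes collect more counts at the same FPKM and had the smaller spread, so length, counts and spread move together here, and their part in the shares was not tested.

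Direction was mostly kept in a library that a call had not used. Unigenes called without 5 psu replicate 3 numbered 1355, and replicate 3 itself moved the same way from the control mean at 97.3% of them, with a median shift of 0.99 on the log2 scale, against 1.23 for replicates 1 and 2. For replicate 1 the share was 97.2% of 1005 unigenes and the shift 1.19, against 1.36 for the libraries used. For replicate 2 the share was 98.7% of 384 and the shift 1.72, against 1.86. At unigenes not called in those fits the shares were 62.6%, 63.8% and 71.5% for replicates 3, 1 and 2. The left-out and the used libraries are set against the same controls in all of these shares. The left-out library overlapped the controls at 71 (5.24%) of the unigenes called without replicate 3, at 46 (4.58%) of those called without replicate 1 and at 8 (2.08%) of those called without replicate 2.

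Counts of detected unigenes did not separate the salinities. With at least 1 count, 153184, 156183 and 162981 unigenes were detected at 5 psu, against 157403, 160052 and 157316 at 15 psu, and the 5 psu range enclosed the control range (exact two-sided permutation p = 0.8, where 3 against 3 cannot go below 0.1). The 100 most abundant unigenes of each library took 35.6%, 31.9% and 27.8% of the counts at 5 psu, against 32.3%, 29.7% and 30.1% at 15 psu, again with the controls inside the 5 psu range (exact two-sided permutation p = 0.8).

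Reads shared between related unigenes bear on all of these values. The largest assembly cluster holds 72.2% of the unigenes, 97.2% of those tested and 98.8% of those called, so transcripts of 1 gene, alleles and near copies may share reads and their values are uncertain to that extent. Outside it, 11 unigenes rose and 4 fell of 1906 tested (0.787%). The deposited estimated counts were exactly whole, as written to 2 decimals, in all 6 libraries for 27.4% of the called and 26.8% of the tested unigenes.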

How the data were processed

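RNA-seq libraries from whole juvenile razor clams were compared between 5 and 15 psu, 3 of each. For every unigene of a library, the authors deposited an FPKM value and an estimated count, called an expected count per the file headers. The submitters' processing notes list RSEM and Bowtie2 with no version. The sources used here do not name the assembler or its filters. The labels do not describe the library kit as stranded, so antisense or overlapping transcripts cannot be told apart.

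Counts were rounded to whole numbers, since 25.6 to 27.6% of them per library were not exactly whole (over all unigenes, those at 0 included), and filtered with edgeR's filterByExpr (count minimum 10), which kept 67050 of 246672 unigenes and 97.4 to 98.2% of the counts. The 6 libraries alone were scaled by TMM and tested with the robust quasi-likelihood F test of edgeR 4.0.16 in R 4.3.3, with Benjamini-Hochberg adjustment over all unigenes tested at 0.05. The standard error of a log2 fold change is its size divided by the square root of F. Log2 CPM values use a prior count of 2. Totals were 16186592 to 18427234 counts per library, and intervals cover counting error only.

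Named unigenes are called unigenes whose mean reached 10 FPKM and whose groups did not overlap: the 8 largest rises and falls, the 5 most abundant of each, and the smallest p of each. The 4 unigenes of at least 100 FPKM with the largest spread at 5 psu were added. Members, rules and tests were chosen with earlier results of these data known. The replicate numbers in the titles were not taken as pairs. Alternatives were other scalings, filters and tools (DESeq2 1.42.0, limma 3.58.1), a block for the replicate number, sums per assembly cluster outside the largest, whole counts only, thinning, a covariate for the length offset of each library, leaving out each library and, chosen after seeing the data, a length-dependent offset. Unigenes of the largest cluster, 97.2% of those tested, were not summed, so that setting does not address reads shared within it.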

Additional observations from a re-analysis of the deposited data

How the results depend on the processing

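The count of 1300 unigenes (692 higher, 608 lower) was 1.94% of 67050 tested, and it moved by over 1.5 times in some settings. Without a filter on low counts it was 2378 (1285 and 1093), but that is 1.07% of 221682 tested. DESeq2's Wald test gave 2329 (1218 and 1111, 3.47%), and a fit with all 9 libraries 2053 (905 and 1148, 2.85% of 71915). An unfiltered limma fit of log2(FPKM + 1) gave 481 (272 and 209, 0.217% of 221682). A covariate for each library's effective length offset gave 492 (312 and 180, 0.734%). A replicate block gave 582 (351 and 231, 0.868%). Libraries with the same number deviated from their groups with correlations of 0.120, -0.0237 and 0.0483, over 0.1 in 1 of 3 pairs, and 1 of the 3 libraries at 5 psu and 2 of the 3 at 15 psu correlated best with their own number. With 1 of 3 pairs over 0.1, the numbers were not taken as pairs. Whole counts only gave 875 (452 and 423), which is 4.87% of 17961 unigenes tested. The other 10 settings gave 1139 to 1645, the most with the stricter filter (5.39% of 30501 tested). Leaving out 1 library gave 384 to 1355 calls, 247 to 694 higher and 110 to 661 lower. Rises were 48.1% of calls from 10 FPKM up, and 54.2% in the unfiltered limma fit, 41.9% with all 9 libraries, 55.7% with the block, 53.2% with whole counts only, 58.0% with the offset covariate and 51.5 to 62.4% with 1 library left out. Under 10 FPKM they were 56.3%, and 52.7% with library totals alone, 52.0% with a stricter filter (at least 50 counts in 3 libraries), 45.3% with all 9 libraries, 64.9% with the block, 50.9% with whole counts only, 67.4% with the covariate and 51.0 to 79.4% with 1 library left out. The SD of the log2 difference between libraries was 0.912 at 5 psu and 0.862 at 15 psu, and 0.443 and 0.402 on log2(FPKM + 1), 0.694 and 0.620 with the stricter filter, and 0.857 to 0.982 and 0.838 to 0.880 with 1 library left out. The shift of replicate 2 at 5 psu was 1.72, and 1.30 with the stricter filter. The difference in detected unigenes (-807.7) ran from -3574 to 1325, and that in the share of the 100 most abundant (1.05 percentage points) from -0.841 to 3.02, with 1 library left out. Over the 30 named unigenes and the settings tried, 564 values kept their direction and side of the threshold, 100 kept the direction but lost the call, and 2 reversed. Cluster-8005.112941 and Cluster-8005.110834 lost it in 13 of 22 settings each. The reversals were in Cluster-8005.107443 and Cluster-8005.111859, neither of them called, which turned to -0.34 and -0.31 without replicate 3 at 5 psu, within ranges of -0.34 to 1.16 and -0.31 to 0.86 over the left-out libraries. The cause was not tested for any of these, apart from the fewer or more unigenes and libraries in the filters, whole counts and left-out fits. Depth limits small changes and unigenes under 1 FPKM.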
